A study of Mus musculus with 12 samples.

Results

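Egr1 and 9 other immediate-early genes were followed through the RNA of *Abca4*Ko and control mouse retina. The 10 genes were Egr1, Egr3, Fos, Fosb, Arc, Nr4a1, Nr4a3, Dusp1, Atf3 and Btg2, taken by symbol from the 56748 entries of the deposited scaled count table and the 55372 entries of the TPM table (a length-scaled share of each library). Egr1 led the choice because it was higher in *Abca4*Ko retina than in control retina, and the members were chosen by that genotype contrast in retina, which is therefore given as a description and tests nothing here. All 12 libraries came from mice aged 2 months, with 3 libraries in each of 4 groups. *Abca4*Ko mice were RiboTag; Abca4-/-; i75-Rod-Cre, and their control littermates were RiboTag; i75-Rod-Cre. Controls thus also carried the tagged ribosomal protein and the Cre, which acts only where its rod-specific driver is active. Rod TRAP libraries hold messages pulled down on tagged rod ribosomes, and retina libraries hold the lysate before the pull-down. Nothing in the labels says how many mice went into a library, so the spread between libraries may be partly technical.

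Immediate-early genes are silent or low in a resting cell and are transcribed within minutes of a stimulus, without new protein synthesis. Calcium, cAMP and mitogen-activated protein (MAP) kinases act on factors that already sit on their promoters, such as CREB and the serum response factor. Their messages are short-lived, and in retina they are known to respond to light, neuronal activity, injury and tissue handling. Among the 10, Egr1 and Egr3 encode zinc-finger transcription factors, Fos and Fosb encode subunits of AP-1, Nr4a1 and Nr4a3 encode orphan nuclear receptors, and Atf3 encodes a stress-induced factor of the ATF family. Dusp1 encodes a phosphatase that switches MAP kinases off, Btg2 encodes an antiproliferative cofactor of mRNA deadenylation, and Arc encodes a synaptic protein of activated neurons.

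Promoter sequence is shown first for genes that, like Egr1, had higher scaled counts in *Abca4*Ko retina without overlap (Fos, Nr4a1 and Nr4a3). A pair whose genotypes overlapped in retina (Dusp1 and Btg2) is shown beside them. RefSeq promoters on GRCm38.p6 matched 7 of the 10 genes, and Egr1, Egr3 and Arc were not matched. Each line gives the 250 bases before the transcription start, 5′ to 3′ on the strand of the gene. Capitals mark TGACG or its reverse complement CGTCA, the core of the cAMP response element, and in Fos also TATAAA. The windows are chr12:85473640-85473889 (+ strand) for Fos, chr15:101266596-101266845 (+) for Nr4a1, chr4:48045055-48045304 (+) for Nr4a3, chr17:26508473-26508722 (− strand) for Dusp1 and chr1:134079156-134079405 (−) for Btg2.
Fos: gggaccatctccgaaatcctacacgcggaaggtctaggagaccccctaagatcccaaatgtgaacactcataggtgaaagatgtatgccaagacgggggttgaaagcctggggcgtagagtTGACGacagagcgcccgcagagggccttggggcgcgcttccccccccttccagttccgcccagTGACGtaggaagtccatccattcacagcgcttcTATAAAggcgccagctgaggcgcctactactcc
Nr4a1: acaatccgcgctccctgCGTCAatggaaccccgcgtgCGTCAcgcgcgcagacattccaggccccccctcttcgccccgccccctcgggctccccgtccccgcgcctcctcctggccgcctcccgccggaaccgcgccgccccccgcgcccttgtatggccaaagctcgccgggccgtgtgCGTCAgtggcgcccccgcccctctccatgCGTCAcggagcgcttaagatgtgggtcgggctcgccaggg
Nr4a3: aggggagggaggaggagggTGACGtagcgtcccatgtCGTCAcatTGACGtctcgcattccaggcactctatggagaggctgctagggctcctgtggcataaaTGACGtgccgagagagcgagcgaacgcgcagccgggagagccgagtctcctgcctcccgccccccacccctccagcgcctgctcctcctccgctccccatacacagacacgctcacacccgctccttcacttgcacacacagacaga
Dusp1: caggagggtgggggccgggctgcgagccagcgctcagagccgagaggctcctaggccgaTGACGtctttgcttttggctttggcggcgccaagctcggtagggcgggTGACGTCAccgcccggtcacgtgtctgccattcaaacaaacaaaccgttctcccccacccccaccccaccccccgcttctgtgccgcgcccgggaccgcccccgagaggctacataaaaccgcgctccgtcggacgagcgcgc
Btg2: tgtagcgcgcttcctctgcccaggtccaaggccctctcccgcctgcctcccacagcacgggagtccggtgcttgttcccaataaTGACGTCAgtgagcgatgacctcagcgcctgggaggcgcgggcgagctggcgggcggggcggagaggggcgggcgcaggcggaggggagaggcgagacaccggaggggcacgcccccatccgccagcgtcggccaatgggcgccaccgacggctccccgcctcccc

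On either strand, TGACG was found in the windows of all 7 matched genes, and in 17.8% of the 32851 promoter windows of all 27025 genes in the table. The palindrome TGACGTCA, which holds TGACG on both strands, was found in Dusp1 and Btg2, and in 1.55% of all windows. In Fos the TGACG nearest the start began 66 bases before it, in Fosb 60 bases and in Atf3 7 bases before it. Nr4a1 and Nr4a3 had 4 such cores each, the most among the 7. TATAAA, searched on both strands, was found in Fos alone of the 7, at 33 bases before the start, and in 12.4% of all windows. No CArG box, the motif that serum response factor binds, lay in any of the 7 windows, and 1.47% of all windows held it. Only exact matches inside these windows were searched. Boxes farther from the start, and any of the genes not matched, were not covered. Since all 7 matched genes held the TGACG core, it could not set those higher in *Abca4*Ko retina without overlap apart from those that overlapped. Egr1 and Egr3, also higher without overlap, were not matched. In the 3′ untranslated region (the longest per gene in GENCODE M21), the pentamer ATTTA, a common part of AU-rich decay elements, was present in 9 of the 10 genes and in 68.3% of 19921 genes. Dusp1 had 5.8 and Nr4a1 had 5.52 per kilobase, Fos had 4.91 and Egr1 1.64, against a median of 1.35 over all genes, and Arc had none. A match to these letters describes the sequence and does not show that a factor binds there.

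The libraries differed in ways that touch these genes. Scaled counts summed to 17096515 to 17097707 per rod TRAP library and to 17860761 to 17862326 per retina library, since the authors had scaled each fraction to a common total. The library labelled *Abca4*Ko replicate 3 held 13156 scaled counts of Abca4 in rod TRAP and 8124 in retina, against 153 to 366 in the other *Abca4*Ko libraries and 37619 to 61017 in controls. Several results are also given without it. The 11 lens markers summed to 4563, 6431 and 14281 CPM (a share of the library total that ignores length) in *Abca4*Ko retina replicates 2 and 3 and control retina replicate 1, and to 11.03 to 55.09 CPM in the other 3 retina libraries (Lim2 was 0 throughout). The 20 rod markers made up 215469 to 236200 CPM in rod TRAP and 102033 to 151141 CPM in retina. The 12 amacrine markers summed to 976.5 to 1740 CPM in retina and to 39.3 to 50.77 CPM in rod TRAP. The 10 ganglion cell markers summed to 689 to 1027 CPM and to 10.94 to 17.37 CPM. The 12 cone markers held 548.1 to 741.8 CPM in rod TRAP and 1400 to 2172 CPM in retina.

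In retina, the scaled counts of Egr1 and 4 relatives were higher in every *Abca4*Ko library than in any control library. Egr1 had 1739, 2745 and 3377 scaled counts in *Abca4*Ko replicates 1 to 3 against 787, 830 and 444 in control, which averaged 2620 ± 826 and 687 ± 212 (SD, n = 3 each). The groups did not overlap, and the *Abca4*Ko mean was 3.81 times the control mean. In TPM, Egr1 had 44.5, 80.0 and 103.7 in *Abca4*Ko retina against 21.8, 25.8 and 12.6 in control. The log2 fold change fitted with limma on log2(CPM + 0.5) was 1.93 (SE 0.26). Its limma adjusted p of 0.0278 is quoted as a description only, since this contrast chose the gene, and it was the only one of the 10 genes to pass 0.05, where 0.112% of all 16964 genes tested passed. It did not pass without *Abca4*Ko replicate 1 or 2 or control replicate 1 or 3 (limma adjusted p from 0.0519 to 0.123), and passed without the library labelled *Abca4*Ko replicate 3 (log2 fold change 1.77, limma adjusted p = 0.0296). The lens markers were high in 2 of the 3 *Abca4*Ko libraries and in 1 control library. Within *Abca4*Ko retina they rose in the same order as Egr1 (11.03, 4563 and 6431 CPM in replicates 1 to 3). Egr1 in the control library high in lens markers (787) lay between the other 2 controls. The part of lens tissue in the Egr1 difference was not tested. In the retina libraries, fewer cells of a type and less RNA per cell cannot be told apart.

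Fos was also higher without overlap. It had 530, 921 and 1252 scaled counts in *Abca4*Ko retina against 399, 465 and 332 in control, a log2 fold change of 1.10 (SE 0.25). The other AP-1 gene of the list, Fosb, had 112, 73 and 78 against 99, 76 and 81, so that the groups overlapped. Nr4a1 had 511, 884 and 1079 in *Abca4*Ko against 380, 329 and 327 in control, a log2 fold change of 1.18 (SE 0.22). Nr4a3 was much lower, with 15, 38 and 63 against 11, 9 and 5, and a log2 fold change of 1.34 (SE 0.35). Fos, Nr4a1 and Nr4a3, and also Dusp1, Btg2 and Arc, had the same order within *Abca4*Ko retina as Egr1, lowest in replicate 1 and highest in replicate 3. Egr3, the other Egr gene of the list, had 36, 34 and 37 against 22, 24 and 17, with no such order. In TPM these 2 low genes met the control range, with Egr3 at 0.7, 0.8 and 0.9 against 0.7, 0.7 and 0.4. Nr4a3 had 0.2, 0.6 and 1.0 TPM against 0.2, 0.2 and 0.1.

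The other retina values did not separate the genotypes in the same direction. Dusp1 had 327, 883 and 908 scaled counts in *Abca4*Ko retina against 497, 507 and 576 in control, so replicate 1 lay below and replicates 2 and 3 above all controls. Btg2 had 1831, 2459 and 2634 against 2695, 2601 and 2243, and Atf3 had 349, 287 and 190 against 241, 224 and 224. Both overlapped. Arc was lower in *Abca4*Ko, with 23, 38 and 41 against 50, 55 and 41, where the scaled counts met at 41 and the CPM after rescaling did not overlap. Of the 10 genes, 5 were higher without overlap (10.6% of all genes tested) and 1 was lower without overlap (9.18%). *Abca4*Ko retina replicate 1, the lowest of its group for Egr1, Fos, Nr4a1, Nr4a3, Dusp1, Btg2 and Arc, also had the lowest amacrine (976.5 CPM), ganglion cell (689 CPM) and bipolar markers (750.6 CPM) and the highest mitochondrially encoded RNA (56983 CPM, against 18396 to 31712 in the other 5 retina libraries). Mitochondrially encoded RNA also moved with the genotype, at 56983, 27484 and 31712 CPM in *Abca4*Ko retina and 23295, 18396 and 18952 CPM in control. All 5 blood markers (median log2 fold change −0.92) and all 10 RPE markers (median −0.46) had fitted values below 0 in *Abca4*Ko retina, and none was called. The part of these in the levels of Egr1 and its relatives was not tested.

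**Figure D1:**
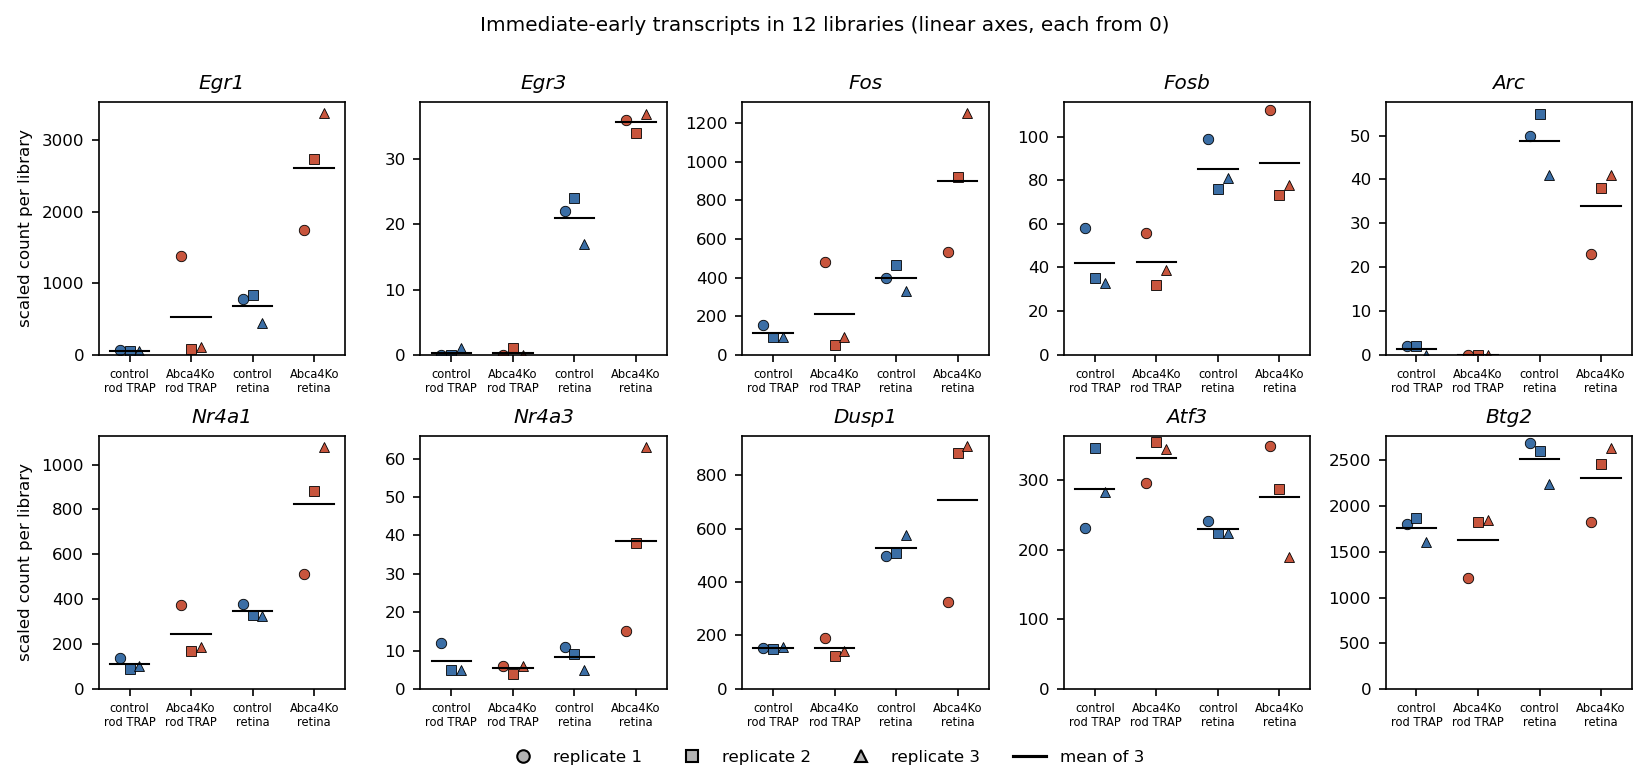
Scaled counts (linear axes from 0) of the 10 immediate-early genes in the 12 libraries, by group; symbols are replicates 1 to 3 and bars are means of 3. Egr1 and Fos are high in *Abca4*Ko retina and, in rod TRAP, highest by far in *Abca4*Ko replicate 1. In *Abca4*Ko rod TRAP replicates 2 and 3, Egr1 (83 and 108) also exceeds every control, while Fos (50 and 94) does not.

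To see whether rod ribosomes carried the same difference, the genotypes were compared in rod TRAP. None of the 7 genes tested passed (0 of 7, where 1.12% of all 13104 genes passed, limma adjusted p under 0.05), and 1 of the 7, Nr4a1, had an unadjusted p under 0.05, where 10.4% of all genes did. Egr3, Arc and Nr4a3 were too low to be tested. In *Abca4*Ko replicates 1 to 3 Egr1 had 1381, 83 and 108 scaled counts against 70, 46 and 47 in control. All 3 *Abca4*Ko libraries exceeded all 3 controls, but replicate 1 held more than 10 times the level of the other two. The log2 fold change was 2.00 with an SE of 1.26 (limma adjusted p = 0.679). Without *Abca4*Ko rod TRAP replicate 1 it was 0.71 (limma adjusted p = 0.0460), a fit in which 4.62% of all genes passed. At this level the 5 other rod TRAP libraries hold 1.8 to 4.1 TPM of Egr1, against 46.3 TPM in replicate 1.

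On *Abca4*Ko rod ribosomes Nr4a1 had 373, 171 and 187 scaled counts, against 139, 90 and 104 in control. The groups did not overlap, and the log2 fold change was 1.02 (SE 0.30, limma adjusted p = 0.237). Leaving out *Abca4*Ko rod TRAP replicate 1 gave 0.64 (limma adjusted p = 0.0259), and leaving out the library labelled *Abca4*Ko replicate 3 gave 1.18 (limma adjusted p = 0.233). Egr1 and Nr4a1 were the 2 of 7 genes that were higher without overlap, where 8.59% of all genes were. Of the 12 cone markers in the same contrast, 7 were higher without overlap and 2 were called higher (limma adjusted p under 0.05). The part of cone RNA in the levels of Egr1 and Nr4a1 was not tested. Fos had 482, 50 and 94 against 152, 93 and 94, and the log2 fold change was 0.28 (SE 0.92, limma adjusted p = 0.943) and became −0.64 without *Abca4*Ko rod TRAP replicate 1 (limma adjusted p from 0.276 to 0.988 over the libraries left out). Fos was thus high in 1 rod TRAP library and within or below the control range in the other two.

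Fosb had 56, 32 and 39 in *Abca4*Ko rod TRAP against 58, 35 and 33 in control. Dusp1 had 192, 125 and 141 against 153, 148 and 156, and Atf3 had 295, 355 and 345 against 231, 346 and 282. Btg2 had 1217, 1824 and 1844 against 1804, 1866 and 1604. The groups of all 4 genes overlapped, and their log2 fold changes ran from −0.12 (SE 0.13) for Btg2 to 0.23 (SE 0.14) for Atf3. Nr4a3 had 6, 4 and 6 against 12, 5 and 5. Egr3 had a single count in 1 library of each genotype, and Arc had 2, 2 and 0 counts in control and none in *Abca4*Ko.

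**Figure D2:**
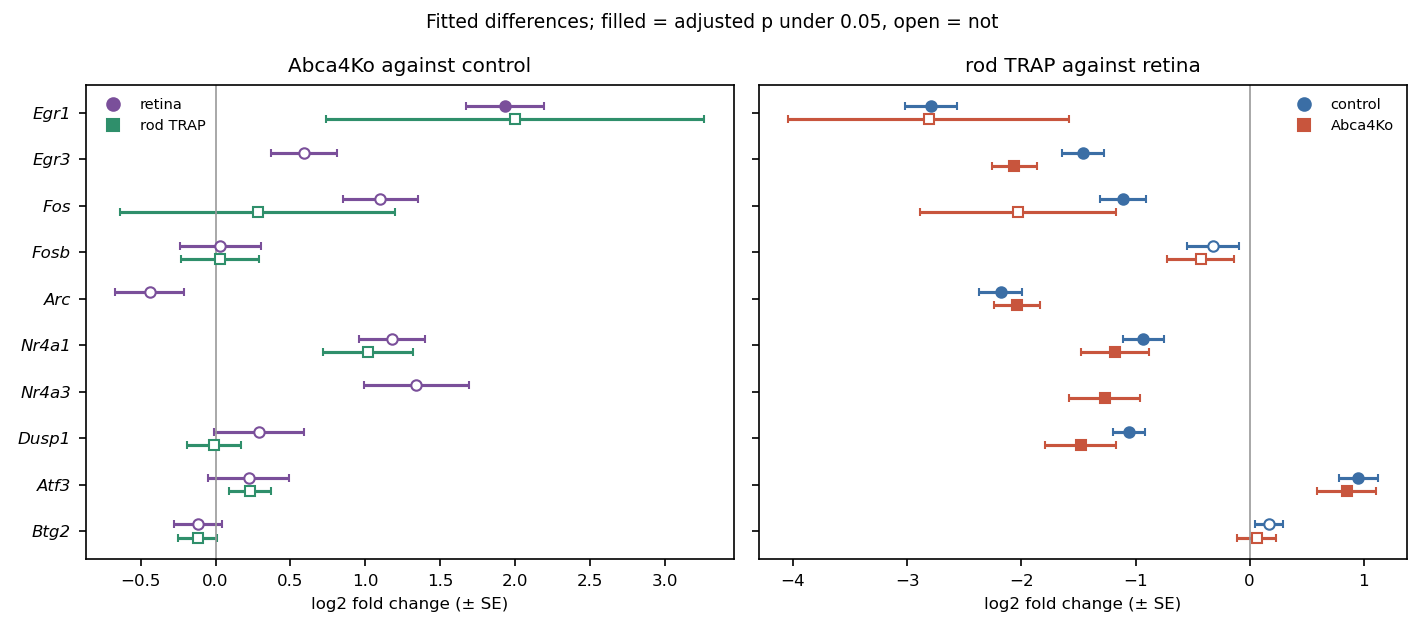
Fitted log2 fold changes with SE for *Abca4*Ko against control (left, retina and rod TRAP) and for rod TRAP against retina (right, control and *Abca4*Ko), 3 libraries a group; filled symbols have a limma adjusted p under 0.05. In rod TRAP, Egr1 has a log2 fold change as large as in retina but an SE of 1.26 against 0.26.

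*Abca4*Ko rod TRAP replicate 1 stood apart for Egr1 and for other transcripts, and without it 598 of all genes passed between the genotypes in place of 147. Its Egr1 level of 80.77 CPM compared with a highest value of 6.317 CPM in the other 5 rod TRAP libraries. The library was picked after its values were seen, so a high rank of Egr1 in it follows from that choice. Genes with at least 5 CPM in this library were ranked by CPM plus 0.5 over the highest other value plus 0.5. Egr1 was 2 of 9202 genes (ratio 11.92). It came after the ribosomal pseudogene Rps3a3 (12.78), whose reads may be shared with its parent gene. The other libraries were not ranked in this way. Fos was 13 (3.055) and Nr4a1 38 (1.951), while Dusp1 was 403, Atf3 5065 and Btg2 8122. Mitochondrially encoded genes were also near the top, with mt-Nd2 at rank 6 and mt-Cytb at rank 8. Together they summed to 1864 CPM in this library and to 471.6 to 623.2 CPM in the other rod TRAP libraries. The amacrine markers were not raised with them (41.7 CPM, against 39.3 to 50.77), nor were the ganglion cell markers (10.94 CPM, against 12.69 to 17.37), while Müller glia markers were at 525.7 CPM against 411.6 to 478.5. The 10 markers of the retinal pigment epithelium (RPE) were highest in this library (25.56 CPM, against 8.89 to 16.67), as were the 5 blood markers (6.726 CPM, against 1.755 to 5.381). The part of these in its Egr1 level was not tested.

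Same-numbered rod TRAP and retina libraries correlated in their deviations from group means over all genes (r 0.16 to 0.45), and differently numbered libraries were not compared. With the numbers taken as pairs, the rod TRAP level was also read as a percent of its own retina library. For Egr1 it was 83.0%, 3.16% and 3.34% in *Abca4*Ko pairs 1 to 3, and 9.29%, 5.79% and 11.1% in control. *Abca4*Ko pairs 2 and 3 had the lowest shares of the 6, but the share is divided by the retina level, and Egr1 was picked for a high level in *Abca4*Ko retina, so low shares there follow in part from the choice. Fos gave 95.0%, 5.67% and 7.84% in *Abca4*Ko and 39.8%, 20.9% and 29.6% in control, with the same arrangement. Nr4a1 gave 76.3%, 20.2% and 18.1% against 38.2%, 28.6% and 33.2%. Dusp1 gave 61.3%, 14.8% and 16.2% against 32.2%, 30.5% and 28.3%. In these 4 genes, *Abca4*Ko pair 1 lay above and pairs 2 and 3 below all control pairs. In each of them *Abca4*Ko replicate 1 was the highest of its group in rod TRAP and the lowest in retina, so its high share follows from both levels.

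Fosb and Btg2 did not show this arrangement. Fosb lay between 42.6% and 61.2% in the 6 pairs and Btg2 between 69.4% and 77.5%. Atf3 ranged from 88.3% to 189.7%. Of the marker lists of other cells read in this way, 3 showed the same arrangement, with smaller gaps. The RPE, blood and lens markers were not read as shares. Bipolar markers gave 69.6%, 44.8% and 39.8% in *Abca4*Ko and 61.2%, 45.4% and 49.7% in control. In both genotypes, however, 8 of the 10 bipolar markers were called lower in rod TRAP and 2 higher. Their median log2 fold change was −4.84 in control and −5.16 in *Abca4*Ko, so the sum does not give the share of a typical bipolar marker. Müller glia markers gave 10.4%, 6.02% and 5.82% against 8.32%, 6.05% and 6.28%, and vascular markers 6.95%, 2.66% and 1.79% against 3.17%, 3.03% and 3.88%. Amacrine markers gave 4.27%, 3.01% and 2.26% against 3.44%, 2.82% and 3.14%, where pair 2 lay within the control range. Ganglion cell markers (1.59%, 1.72% and 1.24% against 1.35%, 1.73% and 1.7%) and mitochondrially encoded transcripts (3.27%, 2.03% and 1.6% against 2.16%, 2.56% and 3.29%) had pair 1 within the control range. Microglia markers gave 26.5%, 17.1% and 19.9% against 16.2%, 18.7% and 13.4%, where pair 2 lay within the control range. Cone markers gave 41.6%, 40.6% and 42.8% against 28.8%, 31.2% and 25.6%, with every *Abca4*Ko pair above every control pair. The part of other cells or of tissue makeup in the shares of Egr1, Fos, Nr4a1 and Dusp1 was not tested.

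**Figure D3:**
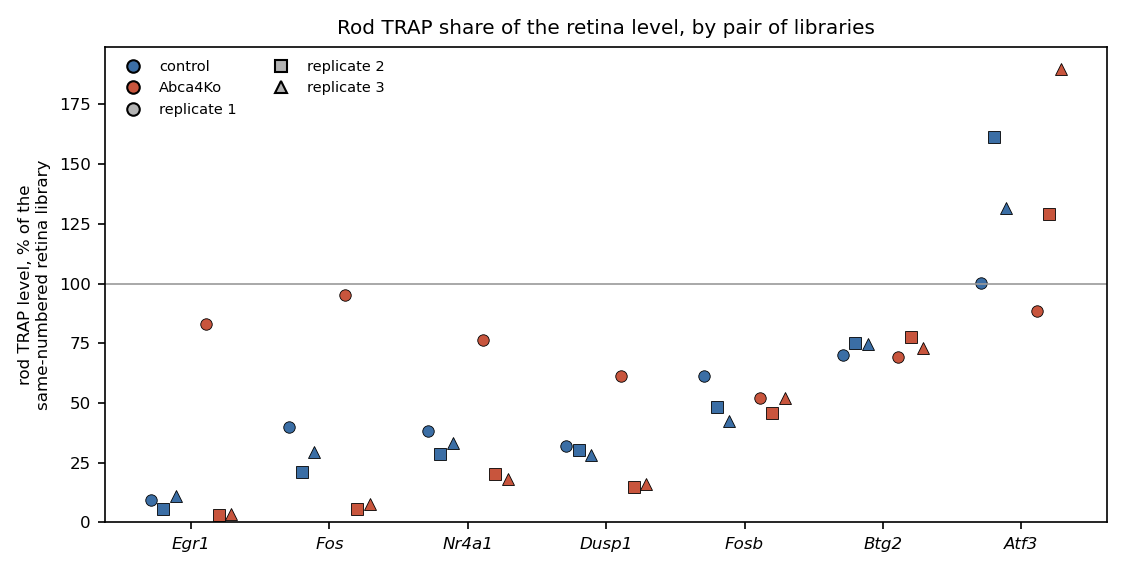
Rod TRAP level as a percent of the same-numbered retina library (linear axis from 0) for 7 genes in 6 pairs; colours are genotypes and symbols replicates. For Egr1, Fos, Nr4a1 and Dusp1, *Abca4*Ko pair 1 (83.0% for Egr1) lies above and pairs 2 and 3 below every control pair.

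Next, the fractions were compared inside each genotype, which sets the share of each transcript on rod ribosomes beside its share of the lysate. In control mice, 9 of the 10 genes could be tested. Of these, 6 were lower in rod TRAP (39.3% of all 16286 genes tested were) and 1, Atf3, was higher (36.0%). The 6 include Egr3 and Arc, which were tested only through their retina libraries, so that the filter fixed their calls. Egr1 had 70, 46 and 47 scaled counts in rod TRAP and 787, 830 and 444 in retina, and its log2 fold change was −2.79 (SE 0.23, limma adjusted p = 2.55e-07). Fos had 152, 93 and 94 in rod TRAP and 399, 465 and 332 in retina (log2 fold change −1.11, SE 0.20, limma adjusted p = 0.000256, and 0.127 with all 12 libraries in 1 fit). Nr4a1 (−0.93, SE 0.18, limma adjusted p = 0.000521) and Dusp1 (−1.06, SE 0.14, limma adjusted p = 2.13e-05) lay close to it. The CPM of these 4 genes did not overlap between the fractions, where 41.1% of all genes were lower without overlap.

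Egr3 and Arc were nearly absent from rod ribosomes. Egr3 summed to 1 scaled count over the 3 control rod TRAP libraries and to 63 over retina, a ratio in CPM of 60.3 with a 95% counting interval of 10.4 to 2419, and to 1 and 107 in *Abca4*Ko (102.4, interval 18.0 to 4083). Intervals cover counting error only, treat scaled counts as reads, and are wide because a single count stands on the rod side. Arc had 2, 2 and 0 scaled counts in control rod TRAP and 50, 55 and 41 in retina. In *Abca4*Ko rod TRAP no Arc was counted, against 23, 38 and 41 in retina, so Arc was at least 10.8-fold lower there (with 3 scaled counts per library as the limit that a count of 0 allows). Both genes were called in both genotypes, but they reached the limit for testing only through the retina libraries where they were high, so the filter fixed those calls and their direction.

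Atf3 ran the other way. It had 231, 346 and 282 scaled counts in control rod TRAP and 241, 224 and 224 in retina, and after rescaling between fractions the log2 fold change was 0.95 (SE 0.17, limma adjusted p = 0.000223). Under the authors' scaling alone it was 0.35 (limma adjusted p = 0.0756). Btg2, at 1804, 1866 and 1604 in rod TRAP and 2695, 2601 and 2243 in retina, lay at a log2 value of 0.17 (SE 0.12, limma adjusted p = 0.214), which turned to −0.45 (limma adjusted p = 0.00519) under the authors' scaling alone. Fosb (58, 35 and 33 against 99, 76 and 81) was not called at −0.32 (SE 0.23, limma adjusted p = 0.226) and passed at −0.86 (limma adjusted p = 0.00468) under that scaling. That scaling moves the median of all genes to −0.621, and the share of calls that are higher in rod TRAP from 47.8% to 26.3%, so values near 0 in this comparison depend on it.

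In *Abca4*Ko mice all 10 genes could be tested between the fractions. Of these, 5 were lower in rod TRAP (34.3% of all 16036 genes tested) and Atf3 was again higher (29.4%). Those lower were Nr4a1 and Dusp1, and Egr3, Arc and Nr4a3, which were tested only through their retina libraries. Egr1 had 1381, 83 and 108 in rod TRAP and 1739, 2745 and 3377 in retina, and its log2 fold change of −2.81 had an SE of 1.23 (limma adjusted p = 0.111). Without rod TRAP replicate 1 it was −4.08 (limma adjusted p = 5.55e-07). Fos went from −2.03 (SE 0.86, limma adjusted p = 0.0898) to −2.94 (limma adjusted p = 2.86e-05) without that library. Both also passed with all 12 libraries in 1 fit (limma adjusted p = 0.0229 and 0.0190) and under the authors' scaling alone (0.0337 and 0.0142), so that their calls depended on 1 library and on the fit.

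Nr4a1 was lower in rod TRAP at −1.18 (SE 0.30, limma adjusted p = 0.00526), which with the replicate pairs as a block had a limma adjusted p of 0.0921, and 0.0534 without the libraries labelled *Abca4*Ko replicate 3. Dusp1 was at −1.48 (SE 0.31, limma adjusted p = 0.00156). Nr4a3, with 6, 4 and 6 scaled counts in rod TRAP and 15, 38 and 63 in retina, was at −1.27 (SE 0.31, limma adjusted p = 0.00431), a call that the filter also fixed, since only *Abca4*Ko retina reached the limit for testing. In control, where Nr4a3 had 12, 5 and 5 in rod TRAP and 11, 9 and 5 in retina, it was too low to be tested. Atf3 was at 0.85 (SE 0.26, limma adjusted p = 0.0137) with 295, 355 and 345 in rod TRAP and 349, 287 and 190 in retina, and at 0.35 (limma adjusted p = 0.280) without the libraries labelled *Abca4*Ko replicate 3. It also missed the threshold without *Abca4*Ko retina replicate 2 or 3 alone (limma adjusted p = 0.0917 and 0.102) and under the authors' scaling alone (0.202).

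The interaction asks whether the genotype difference itself changed between rod TRAP and retina, and it holds the contrast that chose Egr1. It called 0 of the 10 genes, where 0.00579% of all 17273 genes passed, and 2 of the 10 had an unadjusted p under 0.05, where 11.3% of all genes did. These were Nr4a3 (−1.43, SE 0.41, limma adjusted p = 0.415) and Egr3 (−0.55, SE 0.25, limma adjusted p = 0.434). For Egr1 it was 0.08 with an SE of 1.29, and −1.40 without *Abca4*Ko replicate 1 in both fractions (limma adjusted p = 0.567).

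Per length, in TPM, Btg2 was the most abundant of the 10 in every group, with 76.4 ± 6.9 in control rod TRAP and 83.3 ± 11.0 in control retina (SD, n = 3). In control retina it was followed by Dusp1 (28.8 ± 2.4), Egr1 (20.1 ± 6.8), Fos (18.6 ± 3.9), Nr4a1 (12.4 ± 1.2) and Atf3 (12.3 ± 1.0). Egr1 and Fos overlapped in this order, as did Nr4a1 and Atf3. Fosb (2.33), Arc (1.43), Egr3 (0.6) and Nr4a3 (0.167) came last. In *Abca4*Ko retina Egr1, at 76.1 ± 29.8 TPM, stood beside Btg2 at 76.5 ± 19.6, and the ranges of the first 5 genes overlapped from each to the next. In control rod TRAP, Atf3 (17.6 ± 3.5) took the second place, and Egr1 (2.1 ± 0.52) lay sixth, overlapping Fosb (1.6 ± 0.66).

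The wider immediate-early programme was read from 3 lists of related genes. Of 24 other immediate-early transcription factors, 36 immediate-early and feedback effectors and 21 upstream kinases and factors, none was called between the genotypes in rod TRAP (14, 25 and 21 tested), in retina (22, 34 and 21 tested) or in the interaction, in limma fits. At an unadjusted p under 0.05 there were 5, 2 and 1 in rod TRAP (10.4% of all genes), 2, 6 and 6 in retina (11.9%) and 1, 5 and 7 in the interaction (11.3%). Median log2 fold changes were 0.10, 0.05 and −0.04 in rod TRAP and −0.04, 0.05 and 0.14 in retina, against 0.00223 and −0.0131 over all genes.

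None of the most abundant relatives was called between the genotypes. Ier3, which encodes a stress-induced survival factor, had 1434, 1515 and 1268 scaled counts in *Abca4*Ko retina against 1634, 1361 and 1782 in control. Jund, an AP-1 subunit, had 940, 1183 and 1044 against 981, 875 and 1221. Ier2 had 536, 559 and 477 against 424, 436 and 484 in retina, and 498, 379 and 311 against 262, 260 and 261 in rod TRAP, where the groups did not overlap and its log2 fold change was 0.57 (SE 0.17, limma adjusted p = 0.215). Sgk1, a kinase induced by serum and glucocorticoids, had a log2 fold change of 0.16 (SE 0.08) in rod TRAP and 0.20 (SE 0.18) in retina (limma adjusted p = 0.546 and 0.614).

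The next 4 relatives were chosen after their values were seen. Junb, an AP-1 subunit, had 429, 716 and 700 scaled counts in *Abca4*Ko retina against 436, 386 and 461 in control, and 329, 223 and 208 against 172, 183 and 184 in rod TRAP. Homer1, whose short form is induced by activity, had 404, 298 and 494 in *Abca4*Ko retina against 242, 206 and 134 in control, while in rod TRAP it had 775, 829 and 880 against 767, 786 and 831. Zfp36, which encodes an AU-rich element binding protein that speeds mRNA decay, went the other way in both fractions. It had 63, 76 and 66 against 151, 140 and 166 in retina (log2 fold change −1.05, SE 0.21, limma adjusted p = 0.193) and 18, 36 and 12 against 60, 45 and 44 in rod TRAP (−0.99, SE 0.27, limma adjusted p = 0.173). Egr4 had 8, 35 and 35 against 11, 12 and 10 in retina, and 0 to 2 in rod TRAP. None of these passed.

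The same lists were counted between the fractions. In control, where 39.3% of all genes were lower in rod TRAP and 36.0% higher, 10 of 19 tested transcription factors and 19 of 34 effectors were lower in rod TRAP, and 2 and 6 were higher, while of 21 upstream genes 7 were lower and 10 higher. In *Abca4*Ko, where 34.3% of all genes were lower and 29.4% higher, the counts were 12 lower and 1 higher of 20, 20 and 6 of 34, and 5 and 9 of 21. Genes scarce in rod TRAP reach the limit of 10 scaled counts through retina alone and are then bound to be lower, so these counts do not set the lists apart from other genes. Among the upstream genes Mef2c, an activity-regulated transcription factor, was higher in control rod TRAP at 3.51 (SE 0.15, limma adjusted p = 1.08e-09), and Mef2d was at 0.58 (SE 0.10, limma adjusted p = 0.000213). Mapk3, which encodes a MAP kinase, was lower at −0.92 (SE 0.13, limma adjusted p = 3.39e-05). Effectors higher in rod TRAP included Sgk1 at 1.30 (SE 0.11, limma adjusted p = 3.93e-07) and the stress gene Gadd45a at 1.27 (SE 0.14, limma adjusted p = 3.30e-06), and Jund was lower at −1.08 (SE 0.15, limma adjusted p = 3.55e-05).

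**Figure D4:**
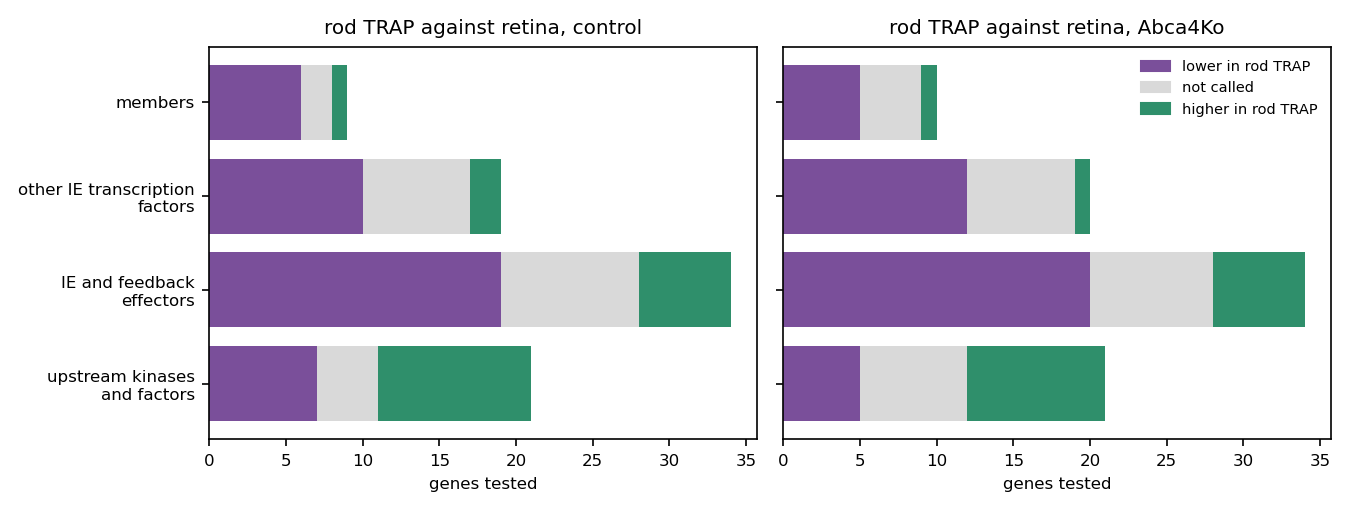
Number of tested genes (horizontal axis) in 4 lists (the 10 members and 3 wider lists; IE, immediate-early) that were lower, not called or higher in rod TRAP than in retina, in control and *Abca4*Ko. In control, 6 of 9 members and 19 of 34 effectors were lower, where 39.3% of all genes were, and 10 of 21 upstream genes were higher, where 36.0% were. Genes tested through retina alone, such as Egr3 and Arc, were bound to be lower.

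The genes whose log2 CPM ran most like that of Egr1 over the 6 retina libraries included Hccs (Pearson r 0.992), Rgs2 (0.990), Sdcbp (0.989) and Neto2 (0.987), of 11772 genes with a mean of at least 5 CPM. These values describe 6 points that share the genotype difference and the tissue makeup of each library. Among the 10 genes, Fos (0.96, rank 21) and Nr4a1 (0.95, rank 39) were nearest, Nr4a3 (0.94) and Egr3 (0.92) followed at levels under that limit, and Dusp1 (0.44), Atf3 (0.13), Fosb (−0.08), Btg2 (−0.21) and Arc (−0.58) were not alike. With the mean of each genotype subtracted, the nearest were Plekhh2 (0.997), Zkscan3 (0.997), Gtf3c4 (0.995), Dhx57 (0.995) and Trib2 (0.995). By that measure Arc (0.91), Btg2 (0.88), Fos (0.84) and Nr4a3 (0.83) were the members nearest to Egr1, with Nr4a1 at 0.63 and Egr3 at 0.29. Such values were common by that measure: of all 11772 genes, 4.99% had a higher r than Arc, 7.16% than Btg2, 10.7% than Fos and 11.5% than Nr4a3. The members nearest to Egr1 thus changed once the genotype difference was removed, and none of them stood out from other genes by the second measure.

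**Figure D5:**
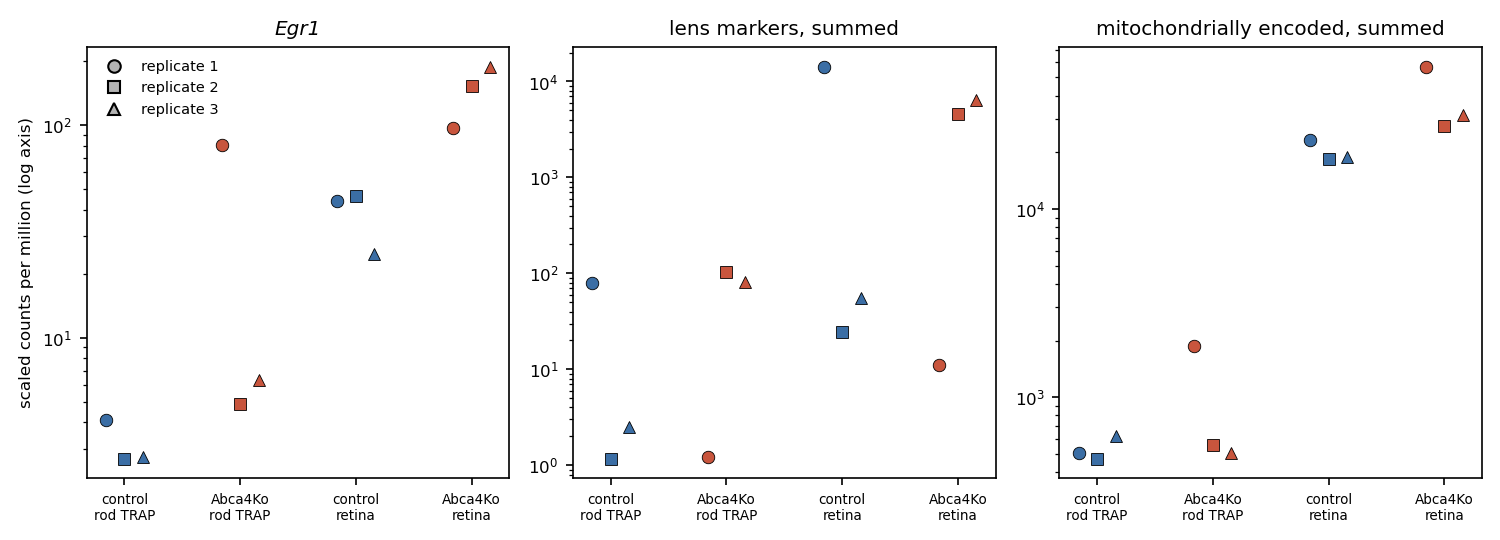
Egr1 (left), summed lens markers (middle) and summed mitochondrially encoded transcripts (right) in CPM on log axes, by group; symbols are replicates. *Abca4*Ko rod TRAP replicate 1 stands apart for Egr1 (80.77) and mitochondrially encoded RNA (1864), and the libraries high in lens markers are *Abca4*Ko replicates 2 and 3 and control replicate 1.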

How the data were processed

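RNA from rod TRAP and retina lysate of 2-month-old mice was converted with a low-input kit, from 10 and 5 ng per the labels, and sequenced. The submitters' processing notes name CASAVA 1.8.2, HISAT2, DESeq2, edgeR and GRCm39 without roles; the annotation, the counter and the treatment of strand are not given in the sources used here. The authors deposited a table of scaled counts, treated here as a score because totals are equal within a fraction, and a table of TPM to 1 decimal. True read depth per library is therefore unknown from the totals, and counting intervals cover counting error only.

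The count test planned for whole numbers was not used. Scaling factors between libraries were trimmed means of M values (trims 0.3 and 0.05) and values were tested as log2(CPM + 0.5) with limma 3.58.1 (trend, robust) in R 4.3.3, two-sided, for genes with at least 10 scaled counts in at least 3 libraries, with Benjamini-Hochberg adjustment over all genes tested and a threshold of 0.05. Each comparison used its own 6 libraries and the interaction all 12. Fold changes on this scale understate those of low genes. The test was checked on simulated data. Same-numbered rod TRAP and retina libraries correlated in their deviations from group means (r 0.16 to 0.45 in 6 pairs over 17273 genes), and numbers were taken to pair fractions. Between genotypes r was −0.39 to 0.01 and numbers were not taken as pairs. Alternatives covered scaling, pseudocount 2, no filter, log2(TPM + 1), the replicate block, all 12 libraries in 1 fit and each library left out. Python 3.11.15 with pandas 2.3.3 and matplotlib 3.10.9 was used for values, motifs and figures.

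The 10 members, the lists and the tests were chosen with earlier results of these data known. Named genes are the members, the 3 highest by TPM of each wider list in control retina and rod TRAP, the 5 most like Egr1 by each measure, and Abca4; others are marked. Some genes that the rule selects are not reported here. The files' build differs from that of the promoter table, so no other positions are given.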

Additional observations from a re-analysis of the deposited data

How the results depend on the processing

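Over 74 alternatives to the 5 counts of members called, 61 stayed within 1.5 times or stayed at 0. A count of 0 that stayed 0 made up 20 of these in the interaction and 11 in rod TRAP between genotypes. In retina between genotypes, 7 of 13 alternatives moved. In retina between genotypes the count of 1 became 0 under the authors' scaling alone, on log2(TPM + 1) and with all 12 libraries in 1 fit, and ranged from 0 to 1 over the libraries left out; Egr1 stayed between 1.66 and 2.12 with limma adjusted p from 0.000881 to 0.274. It was lost without *Abca4*Ko retina replicates 1 or 2 or control retina replicates 1 or 3. In rod TRAP the count of 0 became 2 without *Abca4*Ko replicate 1 (0 to 2 over the libraries left out). Between fractions the range over the libraries left out was 5 to 7 for control (8 under the authors' scaling alone), and for *Abca4*Ko it was 2 to 8, with 1 member called without *Abca4*Ko replicate 3 in both fractions, where Egr3, Arc and Nr4a3 no longer reach 3 libraries with 10 scaled counts. Leaving out any *Abca4*Ko retina library (replicate 1, 3 members; 2 or 3, 2 members) removes the same genes from the test. In the interaction it stayed 0. All genes called between genotypes ranged from 28 (without control rod TRAP replicate 2) to 598 (without *Abca4*Ko replicate 1) in rod TRAP, against 147, and from 1 (without *Abca4*Ko replicate 1) to 63 (all 12 libraries) in retina, against 19. A fit without all libraries high in lens markers could not be made, since 1 *Abca4*Ko retina library is left.

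With replicate number as a block, 1 member was called between genotypes in rod TRAP (Nr4a1, log2 fold change 1.02, limma adjusted p = 0.0230), where numbers were not taken as pairs. Between fractions, where they were, the block took Nr4a1 in *Abca4*Ko to a limma adjusted p of 0.0921 and changed no other member's call.

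Of 663 alternative values for single members, 588 kept sign and call, 15 lost and 13 gained the call, and 47 changed sign, 1 of these past the threshold. Changes of sign were as follows. Fosb in rod TRAP between genotypes was −0.04 on log2(TPM + 1) (−0.20 to 0.24 over libraries left out), and −0.21 to 0.16 in retina. Dusp1 in rod TRAP ran from −0.22 to 0.13, Btg2 from −0.20 to 0.03, Fos from −0.64 to 0.95, and Atf3 in retina from −0.04 to 0.51. Btg2 between fractions in control was −0.45 under the authors' scaling and −0.12 on log2(TPM + 1) (−0.13 to 0.25). In *Abca4*Ko it was −0.45 and −0.15 there, −0.01 with median-of-ratios scaling, −0.06 and −0.18 without replicate 1 or 3 in both fractions (−0.23 to 0.24). In the interaction, Egr1 was −0.11 with pseudocount 2, −0.17 on log2(TPM + 1) and −1.40 without *Abca4*Ko replicate 1 (−1.21 to 0.81), Btg2 was 0.07 without replicate 1 (−0.11 to 0.14), Nr4a1 0.15 without replicate 3 (−0.54 to 0.05) and Fosb −0.25 to 0.20. The causes were not tested.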
